A study of Mus musculus with 6 samples.

Results

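The prostanoid receptors and synthesis enzymes described here are 10 genes of a table that lists 49315: the receptor genes Ptger1, Ptger2, Ptger3, Ptger4, Ptgfr, Ptgir and Tbxa2r and the enzyme genes Ptgs1, Ptgs2 and Ptges. They were taken from the table by gene symbol, and each was found once. They were chosen as a set with the mutant against wild-type values already known, so their own differences between the genotypes are given as a description, with no p-value. The RNA came from mouse embryonic fibroblasts, mixed mesenchymal cells grown out of E13.5 embryos and harvested at passage 0 after 2 days of culture. The wild-type group had the genotype Acvr1+/+ and the mutant group Acvr1R206H/+, with 1 mutant copy of the receptor gene altered in fibrodysplasia ossificans progressiva (FOP). Each genotype had 3 libraries, called biological replicates in the design text, and no treatment is named for either group. The labels do not say how many embryos or litters the libraries came from or whether embryos were pooled, and p-values measure only the spread between these libraries. The values are TPM, transcript abundances scaled for gene length and to a sum of 1000000 per library, so levels of different genes can be compared. The libraries held about 17490900 to 24560500 reads, estimated from the values, and wild-type library 1 stood apart on the second principal component, at 34.1 against -16.3 to 4.84 for the other 5. All 10 fibroblast markers were detected, with summed levels of 5670 to 7471 TPM in wild type and 8975 to 11558 in R206H. Summed epithelial markers (10 genes) ran from 217 to 419 TPM in wild type and from 54.2 to 169 in R206H, and mesothelial markers (8 genes) from 390 to 475 and from 189 to 376. The share of mitochondrial transcripts was 4.16% to 4.57% in wild type and 3.43% to 3.85% in R206H.

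Prostanoids are short-lived lipid signals made from arachidonic acid. Phospholipases free the acid from membranes, the cyclooxygenases encoded by Ptgs1 and Ptgs2 turn it into prostaglandin H2, and terminal synthases such as that encoded by Ptges turn prostaglandin H2 into the individual prostanoids. These leave the cell and act on G protein-coupled receptors: Ptger1 to Ptger4 encode the receptors for prostaglandin E2, Ptgfr that for prostaglandin F2alpha, Ptgir that for prostacyclin and Tbxa2r that for thromboxane A2. Ptger2, Ptger4 and Ptgir products couple mainly to Gs, which raises cyclic AMP, those of Ptger1, Ptgfr and Tbxa2r to Gq and calcium, and that of Ptger3 mainly to Gi. In bone and connective tissue prostaglandin E2 is known as a regulator of both formation and resorption.

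The levels of both cyclooxygenase genes were lower in every R206H library than in any wild-type library, and that of Ptges overlapped between the genotypes. Among the receptors, Tbxa2r and Ptgfr were higher in every R206H library, Ptger4 was lower in every one, and Ptgir, Ptger1, Ptger2 and Ptger3 overlapped. In bulk RNA, fewer cells of a type and less RNA per cell cannot be told apart. Of the 10 genes, 8 reached TPM 1 in at least 3 libraries and were in the fit across all genes, and Ptger2 and Ptger3 did not. With limma on log2(TPM + 1), adjusted over all genes tested, 1 of the 8 passed 0.05 in the upward direction, Tbxa2r, and none passed downward, while 5 of 8 had an unadjusted p under 0.05, against 26.1% of all genes tested. Over all 14818 genes tested, 2.04% passed in either direction, 1.26% upward and 0.79% downward. With voom, a limma method run on reads rebuilt from the TPM values, Tbxa2r was called higher and Ptgs1 and Ptgs2 lower, where 8.73% of all genes were called. In 5 of the 8 genes the genotypes did not overlap, against 32.9% of all genes tested. Nothing is read from these counts, because the genes were chosen on this contrast. The call of Tbxa2r was lost without wild-type library 2 or 3 and without R206H library 2 or 3.

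**Figure D1:**
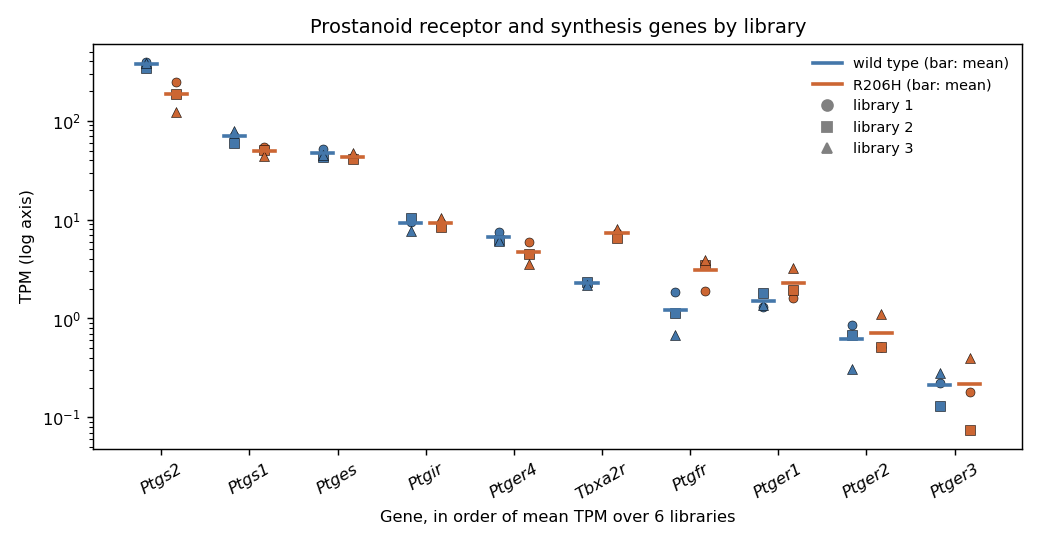
TPM of each of the 10 genes (log axis) in the 3 wild-type and 3 R206H libraries, with horizontal bars at the group means and symbols for the library number. The genes are in order of their mean over 6 libraries, and the groups are apart for Ptgs2, Ptgs1, Ptger4, Tbxa2r and Ptgfr.

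Ptgs2 encodes the inducible cyclooxygenase (ENSMUSG00000032487, GRCm38 chromosome 1, 150100031 to 150108227, plus strand). Its level was 390.8, 342.2 and 387.0 TPM in wild-type libraries 1, 2 and 3 and 248.7, 185.6 and 121.7 TPM in R206H libraries 1, 2 and 3. The R206H libraries were all lower and were more spread out than the wild-type ones. The means were 373.3 ± 27.0 TPM in wild type and 185.3 ± 63.5 in R206H (SD, n = 3), so wild type was 2.01 times R206H, with a log2 difference of -1.06 (SE 0.232). Leaving out single libraries gave ratios of 1.72 times, without R206H library 3, to 2.43 times, without R206H library 1. Estimated reads ran from 3170 to 11030 per library, so counting error is small beside the spread between libraries. The 3 R206H libraries stood in the same order for Ptgs2 as for summed epithelial markers, at 169, 102 and 54.2 TPM, and for summed mesothelial markers, at 376, 281 and 189 TPM. Most of the mesothelial sum came from Krt19 and Msln. Of its other genes, Upk3b, Wt1 and Lrrn4 had higher means in R206H, at 22.0, 7.22 and 5.31 TPM against 17.2, 6.62 and 5.07 in wild type. The fitted log2 value of Lrrn4 was -0.06. Upk1b, Cldn15 and Muc16 had lower means in R206H, at 17.7, 1.70 and 0.0963 TPM against 19.7, 2.84 and 0.127 in wild type. The groups overlapped for each of these other genes. In wild-type library 2, with the smallest epithelial sum of that genotype at 217 TPM, Ptgs2 was at 342.2 TPM. In wild-type library 1, with the largest at 419 TPM, Ptgs2 was at 390.8. The mesothelial sum had another order in wild type. It was lowest in library 1, at 390 TPM, against 458 and 475 TPM in libraries 2 and 3. The part of these markers in the Ptgs2 difference was not tested.

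Ptgs1 encodes the cyclooxygenase that many tissues express constitutively (ENSMUSG00000047250, chromosome 2, 36230426 to 36252272, plus strand). It had 70.9, 59.9 and 78.9 TPM in wild-type libraries 1, 2 and 3 and 54.2, 50.5 and 44.2 TPM in R206H libraries 1, 2 and 3. The groups did not overlap, although R206H library 1 and wild-type library 2 lay close together. The means were 69.9 ± 9.58 and 49.6 ± 5.05 TPM, a log2 difference of -0.48 (SE 0.118), with wild type 1.41 times R206H. The ratio of Ptgs2 to Ptgs1 was 5.51, 5.72 and 4.90 in wild type and 4.59, 3.68 and 2.75 in R206H. Ptgs2 was thus the more abundant of the pair in all 6 libraries, at 83.1% to 85.1% of their summed TPM in wild type and 73.4% to 82.1% in R206H. Their sum was 443.2 ± 35.7 TPM in wild type and 235.0 ± 68.5 in R206H.

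Ptges encodes the inducible membrane-bound prostaglandin E synthase, which acts after the cyclooxygenases (ENSMUSG00000050737, chromosome 2, 30889471 to 30929863, minus strand). It had 52.0, 43.5 and 45.0 TPM in wild type and 41.8, 40.7 and 47.5 TPM in R206H. These groups overlapped, with means of 46.8 ± 4.52 and 43.3 ± 3.65 TPM and a log2 difference of -0.11 (SE 0.0927). For every unit of Ptges there was less Ptgs2 in each R206H library, with Ptgs2 to Ptges ratios of 5.96, 4.56 and 2.56 against 7.52, 7.86 and 8.61 in wild type.

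The region before the start site of each cyclooxygenase gene is shown because these were the enzyme genes whose groups were apart. Sequences are from RefSeq (GRCm38.p6), which held windows for 9 of the 10 genes, each with 250 bases before the annotated start and 50 after it, written 5′ to 3′ on the gene's strand. Both windows below lie on the plus strand, at chr1:150099781-150100080 for Ptgs2 and chr2:36230176-36230475 for Ptgs1. Capitals mark matches, on either strand, to any of 8 motifs. They are the cyclic AMP response element (CRE) TGACGTCA, its core TGACG, AP-1 TGANTCA and the E-box CACGTG. The others are a C/EBP-like pattern TTGCNNNAA, the GC box GGGCGG, the TATA box TATAAA and the GC-rich BMP SMAD element GGCGCC.
Ptgs2: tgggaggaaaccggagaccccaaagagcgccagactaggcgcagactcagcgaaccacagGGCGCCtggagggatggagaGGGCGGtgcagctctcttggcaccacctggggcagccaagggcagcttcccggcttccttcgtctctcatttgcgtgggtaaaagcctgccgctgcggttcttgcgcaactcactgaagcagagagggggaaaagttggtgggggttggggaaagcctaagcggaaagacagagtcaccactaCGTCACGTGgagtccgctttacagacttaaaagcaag
Ptgs1: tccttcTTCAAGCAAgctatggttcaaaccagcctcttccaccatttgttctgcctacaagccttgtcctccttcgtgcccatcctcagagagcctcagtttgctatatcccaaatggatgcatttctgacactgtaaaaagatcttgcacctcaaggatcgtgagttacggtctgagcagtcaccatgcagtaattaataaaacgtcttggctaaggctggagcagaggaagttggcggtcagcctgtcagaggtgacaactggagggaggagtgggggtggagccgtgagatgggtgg
The Ptgs2 window held the BMP SMAD element, a GC box and, past the annotated start, the CRE core on the opposite strand overlapping an E-box. In all 32851 promoter windows of this length, these motifs were found in 11.9%, 35.7%, 20.8% and 7.15%. The Ptgs1 window held only a match to TTGCNNNAA, found in 9.56% of windows. This pattern is longer than the C/EBP site TTGCGCAA, which was not among the motifs searched. The letters TTGCGCAA lie in the Ptgs2 window, in lower case. The windows also differed in base composition, with 16 CpG dinucleotides for Ptgs2 and 6 for Ptgs1, against a median of 7 over all windows. A match of letters is a description and not a measured binding site.

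Tbxa2r, the thromboxane A2 receptor gene, had the largest upward difference of the 8 genes tested (ENSMUSG00000034881, chromosome 10, 81328731 to 81335172, plus strand). It had 2.28, 2.35 and 2.19 TPM in wild-type libraries 1, 2 and 3 and 7.37, 6.55 and 7.98 TPM in R206H libraries 1, 2 and 3. Every R206H library was far above every wild-type library, and the spread within each genotype was small. The means were 2.27 ± 0.0805 and 7.30 ± 0.719 TPM, so R206H was 3.21 times wild type, with a log2(TPM + 1) difference of 1.34 (SE 0.131). The ratio was 3.06 to 3.38 when single libraries were left out. These levels rest on an estimated 21 to 30 reads per wild-type library and 60 to 87 per R206H library. Counting error is therefore not small beside the spread within each genotype, and the small spread is not read as a sign of precise values. Tbxa2r is known from platelets and smooth muscle. Summed platelet markers (8 genes) overlapped, at 32.6 to 57.4 TPM in wild type and 51.8 to 62.0 in R206H, with Gp6 at 0 in every library. Most of that sum was Ppbp, at 23.1 to 49.8 TPM. Gp1bb (2.57 ± 0.0966 and 4.60 ± 1.95 TPM) and Itga2b (2.35 ± 0.346 and 3.05 ± 0.736 TPM) were higher in each R206H library than in any wild-type library, and limma called neither. Pf4, Gp1ba and Gp5 had lower means in R206H, at 5.36, 0.641 and 0.0786 TPM against 5.77, 1.22 and 0.134 in wild type. Ppbp and Gp9 had higher means in R206H, and the groups overlapped for all of Pf4, Gp1ba, Gp5, Ppbp and Gp9. Summed smooth muscle markers (8 genes) overlapped too, at 5315 to 7158 and 5878 to 9076 TPM. In that list limma called 1 gene, Rgs5, which rose from 9.77 ± 2.33 to 23.1 ± 1.68 TPM (limma adjusted p = 0.0417). Voom called Rgs5 and Cnn1, which had 104.5 ± 24.3 and 200.8 ± 40.4 TPM with no overlap (limma adjusted p = 0.0630). Of all genes, 1.26% were called higher by limma and 4.61% by voom. The summed fibroblast markers did not overlap and were higher in R206H, with a median log2 value of 0.89 over the 10 genes. Most of that sum was Col1a1 and Vim. Col1a1 had 2214 ± 890 TPM in wild type and 4881 ± 876 in R206H, and Vim 3203 ± 350 and 3117 ± 99.6. In 7 of the 10 genes every R206H library was higher, against 17.9% of all genes tested, and the groups overlapped for Vim, Dcn and Lum. The part of any of these cells in the Tbxa2r level was not tested.

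RefSeq gave Tbxa2r a pair of windows, and that nearer to the annotated gene start is shown, as the receptor gene with the largest difference (chr10:81328453-81328752, plus strand, capitals as above).
Tbxa2r: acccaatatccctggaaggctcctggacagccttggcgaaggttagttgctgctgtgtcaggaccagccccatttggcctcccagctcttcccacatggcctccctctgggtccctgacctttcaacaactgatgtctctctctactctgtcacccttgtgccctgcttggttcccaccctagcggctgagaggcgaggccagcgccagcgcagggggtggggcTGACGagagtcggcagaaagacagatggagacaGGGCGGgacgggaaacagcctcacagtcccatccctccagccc
It held the CRE core and a GC box, and the other Tbxa2r window held none of the 8 motifs.

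Ptgfr, the prostaglandin F2alpha receptor gene (ENSMUSG00000028036, chromosome 3, 151796502 to 151837630, minus strand), had 1.85, 1.13 and 0.688 TPM in wild type and 1.92, 3.50 and 3.92 TPM in R206H. The groups did not overlap, but R206H library 1 was barely above wild-type library 1. The means were 1.22 ± 0.584 and 3.11 ± 1.06 TPM, a ratio of 2.55 and a log2 difference of 0.89 (SE 0.287). The ratio moved between 2.09, without wild-type library 3, and 3.42, without wild-type library 1. Ptger1, which encodes the Gq-coupled prostaglandin E2 receptor, had 1.32, 1.81 and 1.35 TPM in wild type and 1.60, 1.96 and 3.22 TPM in R206H. Its groups overlapped, and the ratio of means of 1.51 was 1.19 without R206H library 3.

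Ptgir, the gene of the Gs-coupled prostacyclin receptor, had 9.47, 10.4 and 7.76 TPM in wild type and 9.33, 8.37 and 10.3 TPM in R206H, with fully overlapping groups and a log2 difference of 0.02 (SE 0.134). Ptger4, the gene of the high-affinity Gs-coupled prostaglandin E2 receptor, had 7.52, 6.23 and 6.07 TPM in wild type and 5.89, 4.51 and 3.57 TPM in R206H. Its R206H libraries were all lower, library 1 only slightly so, with means of 6.61 ± 0.800 and 4.66 ± 1.17 TPM and a log2 difference of -0.44 (SE 0.179). As for Ptgs2, R206H library 3 was the lowest of the 6 libraries for Ptger4. The Ptger4 span overlaps that of Ttc33 on the opposite strand, measured at 16.7 to 23.8 TPM. Ptger2, the other Gs-coupled prostaglandin E2 receptor gene, had 0.305 to 0.863 TPM in wild type and 0.510 to 1.10 in R206H, from 10 to 32 estimated reads per library. Ptger3, the Gi-coupled receptor gene, had 0.130 to 0.282 TPM in wild type and 0.0738 to 0.402 in R206H, from 2 to 13 reads. Neither gene was tested for a difference between the genotypes, as both were below the filter.

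Summed over the 7 genes, receptor transcripts were 23.5, 22.7 and 18.6 TPM in wild-type libraries 1, 2 and 3 and 26.8, 25.5 and 30.5 TPM in R206H libraries 1, 2 and 3. The Gs-coupled group made up 75.9%, 76.1% and 75.8% of this sum in wild type and 58.7%, 52.6% and 49.2% in R206H. The Gq-coupled group made up 23.2%, 23.3% and 22.7% in wild type and 40.6%, 47.1% and 49.5% in R206H. In TPM, the Gs-coupled sum overlapped between the genotypes, at 14.1 to 17.9 and 13.4 to 15.7, while the Gq-coupled sum did not, at 4.23 to 5.45 and 10.9 to 15.1. Tbxa2r alone went from 10.6% ± 1.04 to 26.4% ± 0.942 of the receptor sum and Ptger4 from 30.6% ± 2.81 to 17.1% ± 5.16. Ptgir stayed the most abundant receptor transcript in each library, but its ratio to Tbxa2r was 4.15, 4.42 and 3.55 in wild type and 1.27, 1.28 and 1.30 in R206H. Of the 3 Gs-coupled genes, the groups were apart for Ptger4 alone, and Ptger2 was below the filter. Of the 3 Gq-coupled genes, they were apart for Tbxa2r and Ptgfr but not Ptger1. Among all genes tested, 17.9% were apart with R206H higher and 15% with R206H lower, so nothing is read from these counts. The shares of the receptor sum follow from the same values as the single genes and are not a further test.

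**Figure D2:**
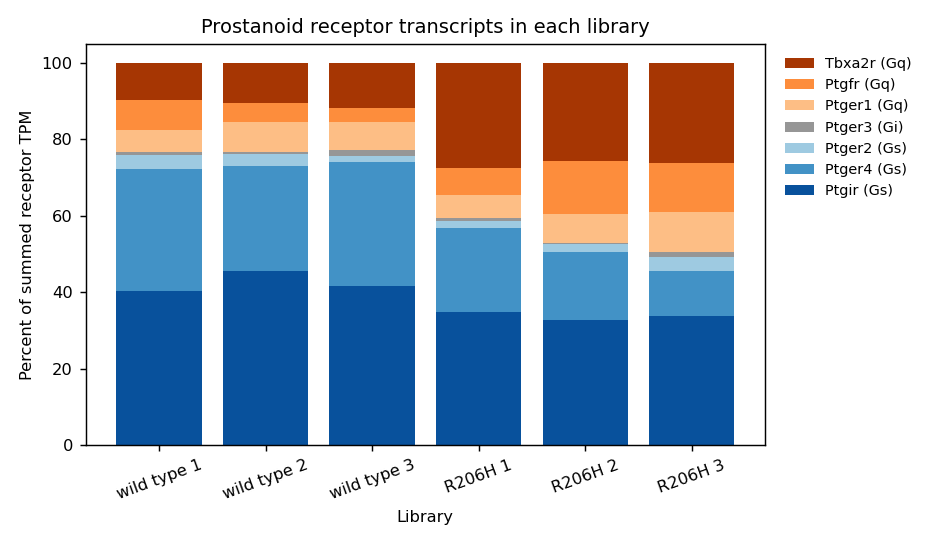
Share of each receptor gene in the summed TPM of the 7 receptor genes (percent), with 1 bar per library and blue for Gs-coupled, grey for Gi-coupled and orange to brown for Gq-coupled receptors. The Gs-coupled share lies between 75.8% and 76.1% in wild type and between 49.2% and 58.7% in R206H.

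Over all 6 libraries the levels ran from Ptgs2, at a mean of 279.3 TPM, through Ptgs1 (59.8), Ptges (45.1), Ptgir (9.28), Ptger4 (5.63), Tbxa2r (4.79), Ptgfr (2.17), Ptger1 (1.88) and Ptger2 (0.662) to Ptger3 (0.215). This order does not use the genotypes, but it was taken from the same 6 libraries as the test. Neighbours were compared within libraries by an exact two-sided sign-flip permutation test on log2(TPM + 1), adjusted over 9 pairs. In 6 of the 9 pairs the higher gene was above its neighbour in all 6 libraries (exact permutation p = 0.03125, the smallest 6 libraries allow, adjusted p = 0.0469). Ptgs2 exceeded Ptgs1 by 2.12 ± 0.401 on the log2 scale, and Ptges exceeded Ptgir by 2.17 ± 0.166. The pairs not shown to differ were Ptgs1 and Ptges (5 of 6 libraries, exact permutation adjusted p = 0.0804), Ptger4 and Tbxa2r (3 of 6, adjusted p = 0.562) and Ptgfr and Ptger1 (4 of 6, adjusted p = 0.719). Within the genotypes, Ptger4 was above Tbxa2r in 3 of 3 wild-type libraries and in 0 of 3 R206H libraries, and Ptgfr was above Ptger1 in 1 of 3 wild-type and 3 of 3 R206H libraries.

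Among 51 other genes of the pathway, listed by role, Pla2g4a was called by limma and was lower in R206H. Pla2g4a encodes the cytosolic phospholipase A2 that frees arachidonic acid (ENSMUSG00000056220, chromosome 1, 149829618 to 149961290, minus strand). It had 65.1, 68.5 and 70.2 TPM in wild type and 53.1, 47.6 and 45.5 TPM in R206H, so all R206H libraries were lower. It fell by 0.47 on the log2 scale (SE 0.0733, limma adjusted p = 0.0458), from 67.9 ± 2.60 to 48.7 ± 3.93 TPM. The call was lost without wild-type library 2 or 3 and without R206H library 2 or 3, where the log2 value was -0.47, -0.45, -0.46 and -0.43. Of the 51 genes, 34 were tested, of which 1 passed downward, none passed upward and 33 did not pass, so the share called is near the 2.04% of all genes called by limma. Their median log2 value was 0.05, against 0.02 over all genes tested, and 11 of 34 (32.4%) had an unadjusted p under 0.05, against 26.1% of all genes. With voom, 4 were called lower, Pla2g4a, Akr1b3, Ptges3 and Slco2a1, and 1 higher, Adcy5, where 4.12% and 4.61% of all genes were called. Of 9 epithelial markers tested, 2 (Cldn3 and Epcam) were called lower by limma and the median log2 value was -1.55. Of 7 mesothelial markers tested, 1 (Msln) was called lower and the median was -0.50. Their part in the Pla2g4a difference was not tested.

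**Figure D3:**
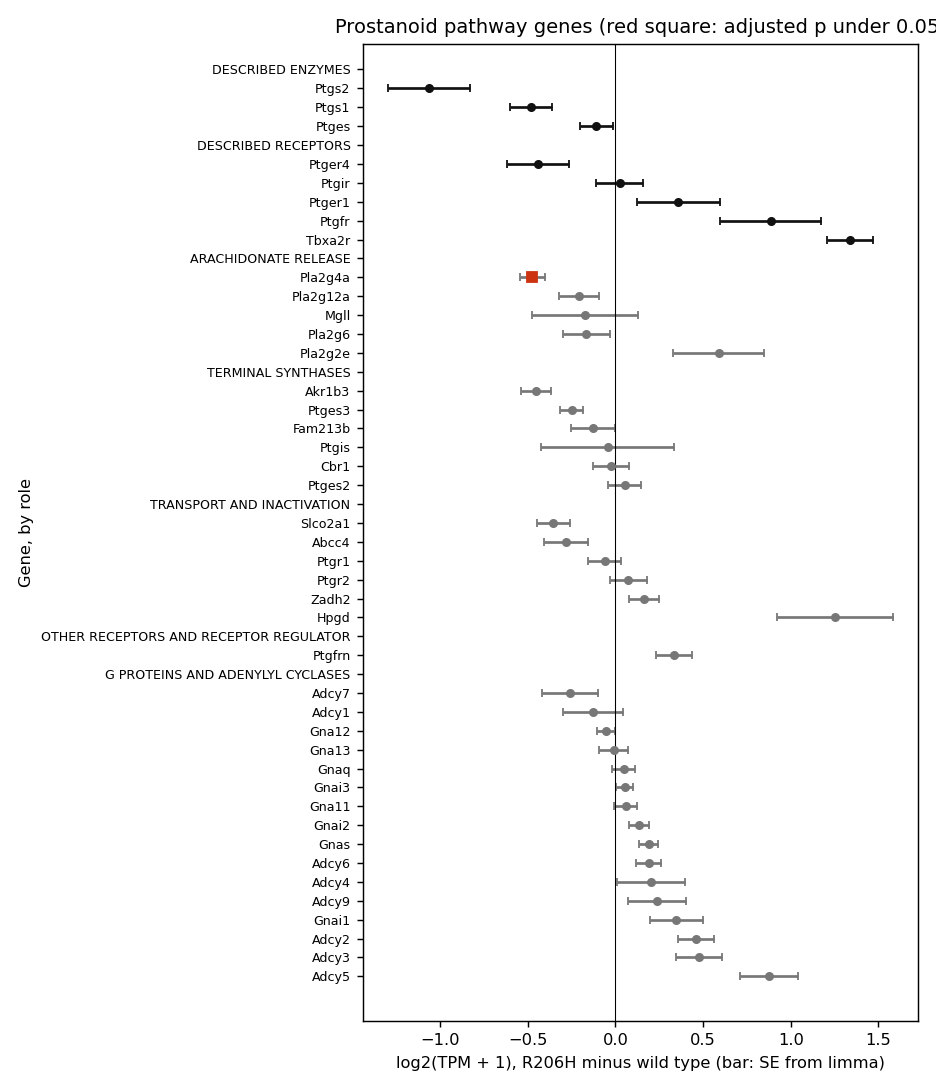
Difference in log2(TPM + 1), R206H minus wild type, with its SE from limma, for the 8 tested receptor and enzyme genes (black) and the 34 other pathway genes tested (grey), by role. The red square is Pla2g4a, called among the 34 at an adjusted p under 0.05. Calls are not marked for the 8 receptor and enzyme genes, so Tbxa2r, which passed, has no red square.

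Of the 16 genes of arachidonate release, 5 were tested. Beside Pla2g4a, Pla2g6 and Pla2g12a, which encode other phospholipases A2, had log2 values of -0.17 (SE 0.134) and -0.21 (SE 0.116) that did not pass. The other 11 reached at most 1.09 TPM in any library. Of 9 terminal synthase genes, 6 were tested. By limma none passed, and 2 of the 6 had an unadjusted p under 0.05, against 26.1% of all genes tested. Ptges3, a cytosolic prostaglandin E synthase that is also an HSP90 cochaperone, had 271.6 ± 2.45 TPM in wild type and 228.6 ± 17.4 in R206H (log2 -0.25, limma adjusted p = 0.0779). Akr1b3, an aldose reductase with prostaglandin F synthase activity, had 50.8 ± 2.42 and 36.9 ± 3.84 TPM (log2 -0.46, limma adjusted p = 0.0508). Cbr1, a carbonyl reductase that can convert prostaglandin E2, had a log2 value of -0.03. Ptgis, the prostacyclin synthase gene, was measured at 24.9 ± 6.16 and 25.9 ± 12.2 TPM, with overlapping groups. By contrast Tbxas1, the thromboxane synthase gene, was at 0.530 to 0.769 TPM in wild type and 0.213 to 0.564 in R206H, and the prostaglandin D synthase genes Ptgds and Hpgds were at no more than 0.975 TPM in any library.

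All 6 genes of transport and inactivation were tested. By limma none passed, and 2 of the 6 had an unadjusted p under 0.05, against 26.1% of all genes tested. Voom called Slco2a1 lower, where 4.12% of all genes were called lower. Slco2a1, which encodes the transporter that takes prostaglandins up for inactivation, had 42.9 ± 5.11 TPM in wild type and 33.1 ± 1.06 in R206H (log2 -0.35, limma adjusted p = 0.0834). Ptgr1 and Zadh2, which encode prostaglandin reductases, had log2 values of -0.06 and 0.16. Hpgd, the 15-hydroxyprostaglandin dehydrogenase gene that starts prostaglandin breakdown, had 0.630, 1.49 and 2.39 TPM in wild type and 3.05, 5.24 and 6.37 TPM in R206H. Its groups did not overlap, with a ratio of 3.25 and a log2 value of 1.25 (SE 0.332) that did not pass (limma adjusted p = 0.0819). Ptgfrn, whose product associates with the prostaglandin F receptor and lowers ligand binding, had 53.5 ± 2.87 and 68.1 ± 9.40 TPM (log2 0.33, limma adjusted p = 0.105). The prostaglandin D2 receptor gene Ptgdr was at 0 in all libraries.

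Of the 17 G protein and adenylyl cyclase genes, 16 were tested and none passed with limma. In 6 of the 16 the genotypes did not overlap, each with R206H higher, against 17.9% of all genes in that direction. An unadjusted p under 0.05 was found for 5 of the 16, against 26.1% of all genes tested. The Gs gene Gnas had 206.2 ± 8.27 TPM in wild type and 235.1 ± 9.80 in R206H (log2 0.19, limma adjusted p = 0.0978). The Gi genes Gnai2 and Gnai3 had log2 values of 0.13 and 0.05 (limma adjusted p = 0.193 and 0.546). Adcy5, an adenylyl cyclase, was the voom call, at 2.30 ± 0.287 and 5.07 ± 0.904 TPM (log2 0.88, limma adjusted p = 0.0508). Voom called 4.61% of all genes higher.

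Among 16 genes known to induce Ptgs2 or to regulate its mRNA, 13 were tested. By limma none passed, 5 had an unadjusted p under 0.05, and the median log2 value was 0.10. Of all genes tested, 26.1% had an unadjusted p under 0.05. With voom, 3 of the 13, Tnfrsf1a, Il1rn and Zfp36, were called higher and 1, Celf2, lower, where 4.61% and 4.12% of all genes were called. Tnfrsf1a, a receptor gene for tumour necrosis factor, had 125.9 ± 16.6 TPM in wild type and 197.5 ± 27.2 in R206H (log2 0.64, limma adjusted p = 0.0509). It was called by limma without wild-type library 1 and without R206H library 1. Il1rn, the interleukin-1 receptor antagonist gene, had 5.81 ± 1.25 and 10.7 ± 1.37 TPM (limma adjusted p = 0.0604). Il1r1, the receptor itself, had 26.2 ± 5.88 and 38.3 ± 7.01 TPM with overlapping groups. Zfp36, which encodes a protein that binds AU-rich elements and promotes mRNA decay, including that of Ptgs2, had 42.3 ± 2.37 and 57.7 ± 8.38 TPM (limma adjusted p = 0.0731). Rela, the NF-kappaB subunit gene, had a log2 value of 0.01 (SE 0.0559), and Il1b was at 0 in all libraries.

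Of 16 cyclic AMP-responsive genes, 15 were found and 12 tested. None passed with limma, and 2 of the 12 had an unadjusted p under 0.05, against 26.1% of all genes tested. The median log2 value was -0.01, with 6 above and 6 below 0. Fos, an immediate early gene, was called higher by voom, as were 4.61% of all genes. It had 42.4 ± 7.47 TPM in wild type and 78.6 ± 17.9 in R206H (log2 0.87, limma adjusted p = 0.0569). The nuclear receptor genes Nr4a1 and Nr4a2 had log2 values of -0.44 and -0.25, and the phosphatase gene Dusp1 one of -0.24 (limma adjusted p = 0.123, 0.248 and 0.299). Nr4a1 and Dusp1 were called lower by limma without R206H library 1. Of 14 leukotriene and lipoxygenase genes, which use the same arachidonic acid, 5 were tested. By limma and by voom none passed, and 1 of the 5 had an unadjusted p under 0.05 by limma, against 26.1% of all genes tested. Alox5ap, the 5-lipoxygenase activating protein gene, had 1.58 ± 0.967 and 3.88 ± 1.09 TPM with overlapping groups. Lta4h, the leukotriene A4 hydrolase gene, had 37.3 ± 1.08 and 41.1 ± 1.82 TPM (limma adjusted p = 0.225). Ltc4s and Ltb4r2, the leukotriene C4 synthase and a leukotriene B4 receptor gene, had log2 values of 0.26 and 0.25 (SE 0.408 and 0.315).

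**Figure D4:**
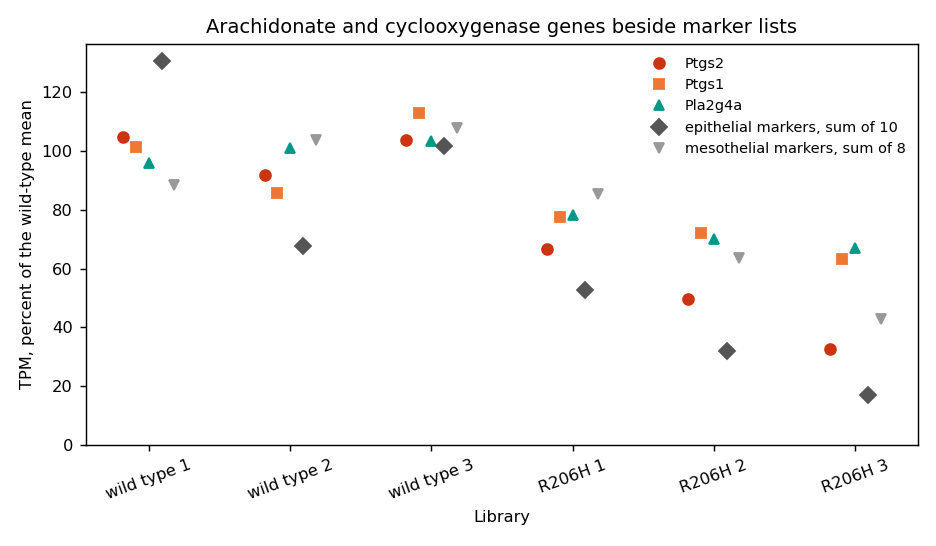
TPM of Ptgs2, Ptgs1 and Pla2g4a and summed TPM of the epithelial and mesothelial markers in each library, as a percent of the wild-type mean of each. All 5 quantities are below their lowest wild-type value in each R206H library, and R206H library 3 is the lowest for all of them.

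The genes whose levels across the 6 libraries were most like those of the most abundant receptor and enzyme genes were listed as a description. For Ptgir these were Fbxl8, Rabl6 and Thap3, with Pearson r = 0.976, 0.974 and 0.971 on log2(TPM + 1). For Ptgs2 they were Mdn1, Nppb and Timm9, with r = 0.998, 0.997 and 0.997, and 1014 of the genes tested had r over 0.9 with Ptgs2 against 32 with Ptgir. Nppb, the natriuretic peptide B gene, had 22.8, 21.2 and 23.3 TPM in wild type and 14.7, 9.67 and 5.40 TPM in R206H. The points share the same 6 libraries, so the values of r for Ptgs2 also contain the genotype difference.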

How the data were processed

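The authors deposited 1 table of TPM values for Ensembl genes, 3 wild-type and 3 R206H libraries, each summing to 1000000. Per the labels' protocols, total RNA was depleted of ribosomal RNA and read at 150 bp from both ends. Per the submitters' processing notes, the tools were DESeq2, featureCounts, STAR, Subread and Trimmomatic, and the builds named are GRCm38 and mm10, with no role or version. The gene lengths, the annotation release and the strand setting behind the TPM values are not given in those notes or the labels. Without the strand setting, reads of genes that overlap on opposite strands cannot be told apart.

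Genes that reached TPM 1 in 3 or more of the libraries were tested on log2(TPM + 1) with limma 3.58.1 (R 4.3.3, mean-variance trend, no covariate, two-sided), with Benjamini-Hochberg adjustment over all genes tested at 0.05. Reads were rebuilt from TPM and exon-union lengths of GENCODE M21 (GRCm38), matched for 49056 genes. Between 91.1% and 91.5% of non-zero values under 100 reads were whole within 0.05. Coordinates are from the same release. The fit was also run on simulated reads with known fold changes. These were drawn independently for each gene and library, so they do not test how calls depend on single libraries. Tables and plots were made in Python 3.11.15 (pandas 2.3.3, matplotlib 3.10.9).

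The genes and lists were chosen with earlier results of these data known. The text names all 10 genes, then pathway genes past the threshold and the 3 most abundant per role, and for related lists up to 4 genes by p and 2 by level. Genes of the marker lists or called by voom, Ptgis, Tbxas1, Ptgds, Hpgds, Hpgd, Ptgdr and Il1b were named after their values were seen, as was the set of motifs. Alternatives were pseudocounts of 0.1 and 5, no filter, a filter at TPM 5, median-of-ratios and quantile scaling, no trend, library weights, a block for replicate number, leaving out single libraries, and voom. Replicate numbers were not taken as pairs.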

Additional observations from a re-analysis of the deposited data

How the results depend on the processing

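The directions of the Ptgs2, Ptgs1, Ptges, Ptger4, Tbxa2r, Ptgfr and Ptger1 values were the same under every alternative in which they were fitted, and that of Ptgir was not. The log2 difference of Tbxa2r was 0.76 with a pseudocount of 5, 1.64 with one of 0.1 and 1.64 with voom, and that of Ptgfr 0.38, 1.32 and 1.39. Counts of called genes moved more. Over all genes, against 303, limma called 129 with a pseudocount of 0.1, 2 without a filter, 587 with a filter at TPM 5, 200 with quantile normalization, 27 without the trend and 1906 with library weights, and voom called 1290. Leaving out single libraries gave 0 to 722, with 722 without R206H library 1, 288 without wild-type library 1 and no more than 5 without any of the other 4. Of the 10 receptor and enzyme genes, those called higher (1) became 0 without a filter, 2 with library weights and 0 to 1 without single libraries. Those called lower (0) became 1 with the filter at TPM 5, 2 with library weights, 2 with voom and 0 to 1 without single libraries. Of the other pathway genes, those called higher (0) became 5 with library weights, 1 with voom and 0 to 1 without single libraries. Those called lower (1) became 0 without a filter or without the trend, 2 with the filter at TPM 5, 4 with library weights, 4 with voom and 0 to 2 without single libraries. Regulators of Ptgs2 called higher (0) became 2 with the filter at TPM 5, 1 with median-of-ratios scaling, 4 with library weights, 3 with voom and 0 to 2 without single libraries, and voom called 1 lower. Cyclic AMP-responsive genes called higher (0) became 1 with the filter at TPM 5, with library weights and with voom, and 0 to 2 were called lower without single libraries. Library weights called 1 leukotriene gene higher. The causes were not tested. With the replicate block limma called 0 genes in all, so 0 of the 10 genes and 0 of the other pathway genes. Deviations of same-numbered libraries from their group means had correlations of 0.018, 0.060 and -0.028, so the numbers were not taken to pair the libraries. The count of 6 neighbour pairs that differed in level was 6 with both other pseudocounts and with median-of-ratios scaling. With 1 library left out, the smallest exact permutation p is 0.0625, so that test was not run. At TPM 5 Tbxa2r passed the filter only through the R206H libraries, and Ptgfr and Ptger1 did not pass it. The levels of Ptger2 and Ptger3, and of Tbxa2r in wild type, rest on few reads, at most 32, 13 and 30 per library. Those of Ptgfr and Ptger1 in wild type rest on 29 to 59 and 34 to 67 reads per library.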

Other observations

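On chromosome 1 the genes of the first steps of prostanoid synthesis lie next to each other. Pla2g4a is the nearest protein-coding gene before Ptgs2, 138.7 kb away and on the opposite strand. Between them lie 3 genes that do not code for protein and reach at most 4.71 TPM. Of these 3, Ptgs2os was called by voom, where 8.73% of all genes were called. Pla2g4a and Ptgs2 were both lower in each R206H library than in any wild-type library. Pdc, the next protein-coding gene after Ptgs2, was at no more than 0.125 TPM. Around Tbxa2r, Cactin, which ends 2489 bp before it, had 91.2 to 104.5 TPM in wild type and 87.6 to 94.0 in R206H (log2 -0.09, limma adjusted p = 0.426). Gipc3, which lies 93 bp after the end of Tbxa2r on the other strand, had 0.501 to 2.25 TPM over all libraries and was not tested. Beside Ptges, the homeobox gene Prrx2 had 112.0 to 155.2 TPM in wild type and 213.6 to 370.3 in R206H (log2 0.96, limma adjusted p = 0.0646). Prrx2 was also a voom call, while Ptges itself overlapped between the genotypes. These neighbours were looked at after the values of the 10 genes were known.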
